A study of Mus musculus with 9 samples.

Results

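The livers of WT mice fed ad libitum or fasted for 24 h were compared on 115 abundant genes whose values stood on the same row of the deposited table in all 5 WT mice. These 115 genes were 0.484% of the 23746 rows. They were chosen by their measured values: a row was kept when it held at least 50 FPKM (fragments per kilobase of transcript, scaled to the mapped reads of the library) in all 5 WT columns, and when its highest value was at most 2 times its lowest within the fed group and within the fasted group. The choice was needed because each column of the table appears to follow its own row order, so that a value can stand beside the wrong gene name. In all, 145 rows held at least 50 FPKM in the 5 WT columns, and 79.3% of them also met the ratio. Single WT columns held between 873 and 950 rows at that level.

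Moving 1 column by 3000 rows, which puts every value of that column beside an unrelated name, left 3 rows when the column was that of WT fed replicate 1. The count was 7 for WT fed replicate 2 and 3 for WT fed replicate 3. It was 2 for WT fasted replicate 1 and 3 for WT fasted replicate 2. These counts are the level at which rows met the rule by chance, against 115 as deposited.

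**Figure D1:**
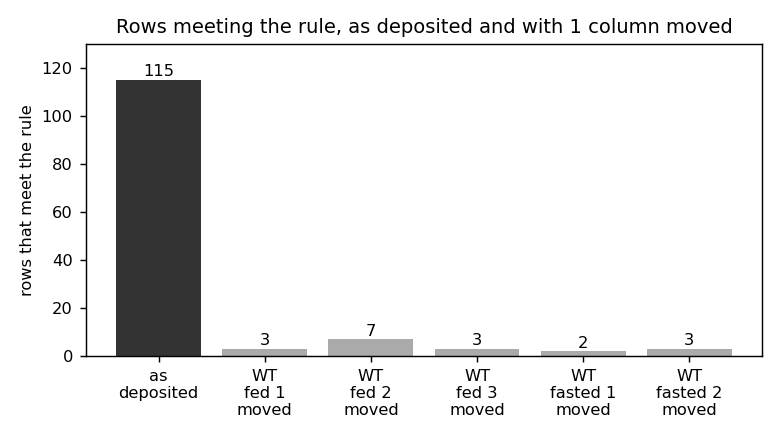
Number of rows (vertical axis) that met the rule of at least 50 FPKM and a ratio of at most 2 within each group, for the table as deposited (dark bar) and after 1 WT column was moved by 3000 rows (grey bars, 1 per moved column). The 115 rows of the deposited order stand against 2 to 7 rows after a move.

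The series holds 9 male C57BL6J/Ola.Hsd mice of 10 to 16 weeks (C57Bl/6 in the labels), with 1 liver library per mouse. There were 3 WT mice fed ad libitum and 2 WT mice fasted for 24 h, and the other 4 were p21KO mice, 2 fed and 2 fasted, which lack the cell cycle inhibitor p21. Summed FPKM ran from 391437 to 422772 in the WT columns, and 9813 to 10097 rows per WT column held at least 1 FPKM. More than 12000000 reads were mapped per sample according to the series' design text, but the reads behind each value are unknown, and the number of mice limits the precision. Of 15 hepatocyte markers only Serpina1b was among the 115 genes, and of 48 markers of other cell types, from macrophages and endothelium to pancreas and muscle, 0 were. In whole liver, fewer cells of a type and less RNA per cell cannot be told apart.

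During fasting the liver turns from storing nutrients to exporting glucose and ketone bodies. Fatty acids released from adipose tissue are shortened by β-oxidation in mitochondria and peroxisomes, and the acetyl-CoA that results is used to make ketone bodies. Amino acid nitrogen is passed on by aminotransferases and leaves as urea. Hepatocytes also make most plasma proteins and, in male mice, large amounts of major urinary proteins, small pheromone carriers that are filtered into urine.

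The 115 rows were first compared with mice that had no part in the choice. Agreement between columns does not show that a name is right, since columns that share a wrong order would agree too. In p21KO fasted replicate 2, 106 of the 115 rows held a value within 2-fold of the range of the 5 WT mice, and 5 did when that column was moved by 3000 rows. Among the other p21KO mice, the count was 106 and 91 in the fed replicates 1 and 2 and 99 in the remaining fasted mouse, against 4 or 5 after a move. The 9 rows outside this range in p21KO fasted replicate 2 were Trp53inp2, Rundc3a, Msi1, Mup15, Pik3c2a, Gm4636, Rps15a, Cyp2a22 and Arhgef7. Trp53inp2, Rundc3a and Msi1 encode an autophagy protein, a RUN domain protein and a neural RNA-binding protein, and whether their rows carry the right name in the WT columns was not tested.

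The rows around the 115 also resembled each other more between columns than the rows around other names. Over the 10 rows on each side, with the own row left out, the median correlation of log2(FPKM + 1) between WT columns was 0.636 (Pearson's r), against 0.447 for 12390 expressed rows, and it was above 0.447 for 84 of the 115. This is a description, since neighbouring rows share their source. Another of the 115 lay within 10 rows for 32 genes.

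Of the 115 names, 114 stood on a single row, and the exception was Mup15. All were matched in the RefSeq annotation of GRCm38, where 113 are protein coding and Gm10768 and BC024386 are long noncoding RNAs. They lay on 20 chromosomes. The median distance from start to end of the gene was 9.16 kb, against 15.9 kb for the 23397 rows that were matched. Their median level in fed WT livers was 118 FPKM. It was above 1000 FPKM for 6 genes and under 100 FPKM for 41. Together they held 9.55% to 10.3% of the summed FPKM in the fed WT mice and 8.39% to 8.42% in the fasted.

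The sequences before the start of 5 genes are shown. These genes lay at least 1.5-fold apart between fed and fasted WT mice and on the same side, without overlap, in p21KO mice. They also held at least 20 FPKM with a ratio of at most 2 within each p21KO group, and had a single promoter in RefSeq that ends at the start of the gene. Genes on chromosomes 8 and 18 were left out. The sequences are the 250 bases before the start in RefSeq (GRCm38.p6), 5′ to 3′ on the strand of the gene, and 1-based coordinates are given. The first 2 belong to genes that were higher after fasting, and in them and in Ambp, capitals mark AGGTCA and CCAAT on either strand.
Hsd17b10, chrX:152001646-152001895, plus strand: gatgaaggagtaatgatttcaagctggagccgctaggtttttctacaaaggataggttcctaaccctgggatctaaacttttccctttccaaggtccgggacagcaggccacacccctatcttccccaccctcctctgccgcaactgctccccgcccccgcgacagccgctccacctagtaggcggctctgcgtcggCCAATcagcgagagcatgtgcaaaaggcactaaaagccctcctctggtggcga
Fabp2, chr3:122894822-122895071, plus strand: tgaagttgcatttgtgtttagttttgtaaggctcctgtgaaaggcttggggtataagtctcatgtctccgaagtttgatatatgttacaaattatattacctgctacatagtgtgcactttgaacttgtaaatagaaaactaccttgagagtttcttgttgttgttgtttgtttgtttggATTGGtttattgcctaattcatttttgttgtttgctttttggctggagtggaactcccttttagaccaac
Ambp, chr4:63154173-63154422, minus strand: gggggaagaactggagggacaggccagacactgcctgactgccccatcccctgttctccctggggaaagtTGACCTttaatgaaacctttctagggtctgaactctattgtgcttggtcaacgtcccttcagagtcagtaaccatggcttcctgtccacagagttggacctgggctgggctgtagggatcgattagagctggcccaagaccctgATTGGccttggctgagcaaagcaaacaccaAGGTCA
Mup3 and Mup21 are neighbouring copies of one gene family, were both lower after fasting and are shown for their likeness. Of 244 aligned bases 228 (93.4%) were identical, and capitals mark the longest identical run, of 37 bases.
Mup3, chr4:62087318-62087567, minus strand: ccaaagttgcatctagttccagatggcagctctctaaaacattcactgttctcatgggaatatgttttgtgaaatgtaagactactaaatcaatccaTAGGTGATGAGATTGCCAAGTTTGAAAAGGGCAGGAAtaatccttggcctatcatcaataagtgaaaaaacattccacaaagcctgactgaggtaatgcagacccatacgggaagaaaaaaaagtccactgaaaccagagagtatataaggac
Mup21, chr4:62150842-62151091, minus strand: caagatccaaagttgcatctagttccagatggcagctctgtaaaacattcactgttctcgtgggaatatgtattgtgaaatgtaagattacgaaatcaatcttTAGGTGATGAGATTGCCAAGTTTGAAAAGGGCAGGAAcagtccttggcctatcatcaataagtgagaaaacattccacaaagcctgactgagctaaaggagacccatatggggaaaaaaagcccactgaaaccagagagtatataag
The reads of such copies may be split between them, so the separate levels of the Mup and Serpina1 genes are uncertain.

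The 250 bases were searched on both strands for 9 motifs in the 5 higher and 8 lower genes that had a RefSeq promoter, and CCAAT was chosen for display after the counts were seen. CCAAT was found for 4 of the 5 higher genes (Crot, Fabp2, Hsd17b10 and Trp53inp2) and 2 of the 8 lower (Ambp and Serpina1e), and 33.9% of all 32851 promoters held it. AGGTCA, which nuclear receptors bind, was found for 0 of 5 and 2 of 8 (Ambp and Haao), against 14.0% of all. The direct repeat of AGGTCA 1 base apart, the form known for PPARα, and the same with AGGNCA were found for 0 genes of either group, and 0.033% and 0.338% of all promoters held them. TGACGTCA and TGACG, which overlap, were each found for Trp53inp2 alone, against 1.55% and 17.8% of all. TATAAA was found for AI182371 and Hc (12.4% of all) and GTAAACA for Cpn1 (3.17% of all). GNACA followed 3 bases later by TGTNC was found for 0 genes (0.387% of all). A gene was counted if any of its promoters held the motif, while the shares are over single promoters, so they are unlike measures. The windows of Hc and Haao did not end at the RefSeq start of the gene. A match is no sign that a factor binds there.

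Most of the 115 genes differed little between fed and fasted WT livers. The difference was taken as mean log2(FPKM + 1) in fasted minus fed mice, a scale that understates the change of low genes. Its median over the 115 was −0.05, with quartiles of −0.29 and 0.21, and it was −0.003 over all 12396 expressed rows, those at 1 FPKM or more in 2 or more WT columns. The difference was above 0 for 51 genes and below 0 for 64. In 31 genes both fasted mice lay above all 3 fed mice, in 47 both lay below them, and in 37 the groups overlapped. Over the 12396 rows, 12.4% lay above and 13.1% below in this sense. The rule kept rows with little spread within a group, so these shares cannot be read against each other and no test was made in the WT mice.

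At least 1.5-fold higher after fasting, with both fasted mice above all fed mice, were 10 genes, or 8.70% of the 115. At least 1.5-fold lower, with both fasted mice below, were 9 genes, or 7.83%. Over the 12396 rows the same limits were met by 9.4% and 9.24%. The shares among the 115 are close to this background, which also holds rows whose values belong to different genes.

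**Figure D2:**
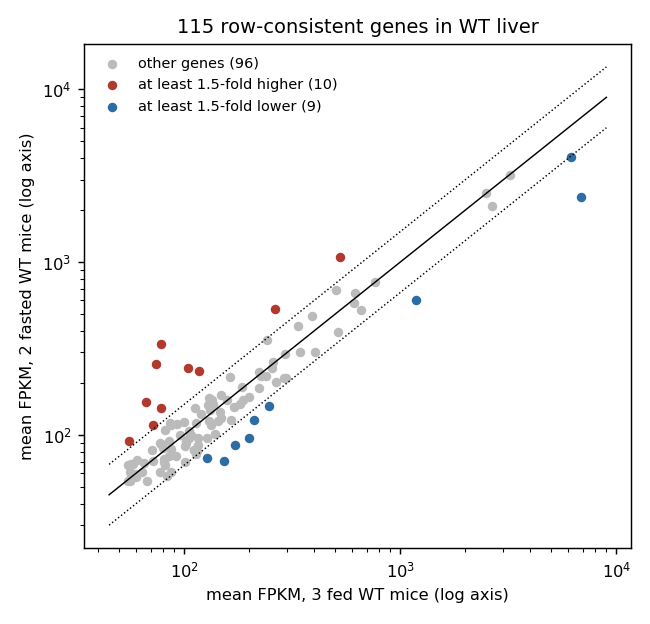
Mean FPKM of the 2 fasted WT mice (vertical axis, log scale) against that of the 3 fed WT mice (horizontal axis, log scale), 1 point per gene for the 115 genes. The solid line marks equal levels and the dotted lines 1.5-fold, with 10 genes above (red), 9 below (blue) and the other 96 in grey.

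Of the 10 higher genes, Hsd17b4 and Acat1 were in the fatty acid oxidation list, Gpt2 in the amino acid list and Ephx2 and Fmo1 in that of P450 and conjugation enzymes, while the other 5 were in no list. Hsd17b10 (chromosome X, 152001896 to 152004442), a mitochondrial dehydrogenase of isoleucine and fatty acid breakdown and a subunit of mitochondrial RNase P, had the largest increase. It held 78.1, 74.4 and 82.4 FPKM in the fed mice and 307 and 363 in the fasted mice. Both fasted values were far above the fed values, 4.22-fold on average, a difference of 2.08 ± 0.10 (SE, 3 fed and 2 fasted mice) on the log2 scale. The rule limited the spread within each group, so this and the later ± values of WT differences can be too small. Crot (chromosome 5, 8966033 to 8997146) encodes the peroxisomal carnitine octanoyltransferase, which passes shortened fatty acids on to mitochondria. Its fed values were 51.8, 103 and 67.5 FPKM and its fasted values 258 and 257. The fed mice spread almost to the limit of the rule, and the groups lay 3.58-fold apart (1.84 ± 0.37).

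Hsd17b4 (chromosome 18, 50128201 to 50196270), the peroxisomal enzyme that carries out the middle steps of β-oxidation, held 111, 113 and 128 FPKM in fed mice and 226 and 246 in fasted mice. It was 2.00-fold higher (1.00 ± 0.10). Acat1 (chromosome 9, 53580522 to 53610350) encodes the mitochondrial acetoacetyl-CoA thiolase, which acts in ketone body and isoleucine metabolism. It held 71.7, 82.6 and 81.1 FPKM in fed mice and 143 and 144 in fasted mice, 1.83-fold higher (0.87 ± 0.08). Fabp2 (chromosome 3, 122895072 to 122899506) encodes the intestinal type of fatty acid binding protein. Its row held 65.0, 61.4 and 74.2 FPKM in fed mice and 154 and 154 in fasted mice, a 2.29-fold difference (1.20 ± 0.10).

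Gpt2 (chromosome 8, 85492576 to 85528902), the mitochondrial alanine aminotransferase, held 93.4, 120 and 99.5 FPKM in fed mice and 257 and 232 in fasted mice. The fasted mice lay 2.34-fold above the fed (1.23 ± 0.15). Ephx2 (chromosome 14, 66084372 to 66124522), the soluble epoxide hydrolase, which opens epoxides of fatty acids, held 266, 274 and 249 FPKM in fed mice and 507 and 569 in fasted mice. It was 2.04-fold higher (1.03 ± 0.08). Fmo1 (chromosome 1, 162829561 to 162866610) encodes a flavin-containing monooxygenase that oxidizes foreign compounds. It held 61.4, 80.8 and 73.0 FPKM in fed mice and 117 and 111 in fasted mice, 1.59-fold higher (0.67 ± 0.15). Without WT fed replicate 1 its difference was 0.56, short of 1.5-fold.

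The remaining 2 higher rows were among those whose value in p21KO fasted replicate 2 was not within 2-fold of the WT range. The row named Trp53inp2 (chromosome 2, 155381811 to 155389847) held 517, 593 and 476 FPKM in fed WT mice and 1126 and 1027 in fasted WT mice, 2.04-fold higher (1.03 ± 0.13). The row named Rundc3a (chromosome 11, 102393394 to 102402555) held 59.0, 50.9 and 57.3 FPKM in fed and 85.2 and 97.9 in fasted WT mice, 1.63-fold higher (0.71 ± 0.11). Ddt, which encodes D-dopachrome tautomerase, lay just under 1.5-fold, with 245, 234 and 249 FPKM in fed mice and 362 and 349 in fasted mice (0.55 ± 0.04).

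The 9 lower genes encoded mostly secreted proteins. Serpina1e (chromosome 12, 103946931 to 103956897), a copy of the α1-antitrypsin gene, had the largest decrease and was one of the most abundant rows. It held 6908, 6306 and 7316 FPKM in fed mice and 2029 and 2734 in fasted mice. The fasted values were 2.90-fold lower, a difference of −1.54 ± 0.18. Ambp (chromosome 4, 63143275 to 63154172) encodes the precursor of α1-microglobulin and the protease inhibitor bikunin. It held 1336, 984 and 1243 FPKM in fed mice and 650 and 557 in fasted mice, 1.96-fold lower (−0.97 ± 0.19).

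Hc (chromosome 2, 34983329 to 35068506) encodes complement component C5. Its fed values were 228, 138 and 152 FPKM, with replicate 1 above the other two, and its fasted values were 90.9 and 83.4, 1.92-fold lower (−0.94 ± 0.29). AI182371, whose gene lies next to Hc (chromosome 2, 35081893 to 35101544) and whose row follows it in the table, held 156, 215 and 262 FPKM in fed mice and 126 and 118 in fasted mice (−0.75 ± 0.28). Without WT fed replicate 3 its difference was −0.58, just short of 1.5-fold. Cpn1 (chromosome 19, 43956307 to 43986551), the catalytic subunit of carboxypeptidase N, which trims kinins and complement fragments in plasma, held 119, 152 and 111 FPKM in fed mice and 73.7 and 73.3 in fasted mice. It was 1.70-fold lower (−0.77 ± 0.18).

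Mup3 (chromosome 4, 62083476 to 62087317) held 6269, 6492 and 5781 FPKM in fed mice and 3862 and 4261 in fasted mice, 1.52-fold lower (−0.61 ± 0.08). The next row, Mup21 (chromosome 4, 62147832 to 62150841), was far less abundant, with 306, 233 and 200 FPKM in fed mice and 132 and 161 in fasted mice (−0.73 ± 0.25). In both genes the groups lay apart. Mup3 no longer reached 1.5-fold after scaling to a common upper quartile (−0.56) or quantile normalization (−0.47), without WT fed replicate 2 (−0.57) or without WT fasted replicate 1 (−0.53), nor did Mup21 without WT fed replicate 1 (−0.56).

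The other 2 lower genes encode proteins that act inside the cell. Haao (chromosome 17, 83831348 to 83848981), the 3-hydroxyanthranilate dioxygenase of the route from tryptophan to NAD, held 207, 210 and 184 FPKM in fed mice and 104 and 86.4 in fasted mice, 2.10-fold lower (−1.07 ± 0.13). Ttc39c (chromosome 18, 12583103 to 12739404), which encodes a protein with tetratricopeptide repeats, held 140, 175 and 144 FPKM in fed mice and 71.3 and 70.0 in fasted mice, 2.14-fold lower (−1.10 ± 0.13). Gstt1, a glutathione transferase, lay just short of the limit, with 104, 120 and 117 FPKM in fed mice and 87.9 and 67.0 in fasted mice (−0.56 ± 0.16).

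**Figure D3:**
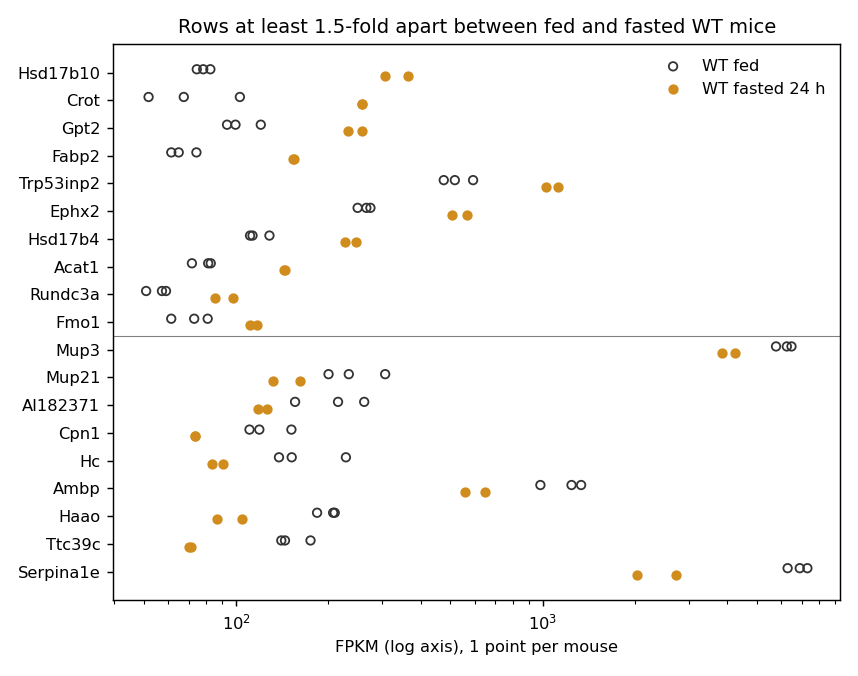
FPKM (horizontal axis, log scale) of the 10 genes at least 1.5-fold higher (above the line) and the 9 at least 1.5-fold lower (below it) after fasting in WT livers. Each point is 1 mouse, open for the 3 fed and filled for the 2 fasted mice, and the groups do not overlap in any of the 19 rows because this was part of how the rows were picked.

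The other genes of the same routes were counted from 16 gene lists, of which the rule kept only a small, abundant part. Of 55 rows on the fatty acid oxidation and ketogenesis list, 4 were among the 115, 2 of them past 1.5-fold. In all 4 the fasted WT mice lay above the fed mice (median difference 0.66), as in 31 of all 115 genes and 12.4% of the 12396 expressed rows. The 4 genes were Hsd17b4, Acat1, Decr2 and Etfb. Decr2, a peroxisomal reductase for unsaturated fatty acids, held 80.2, 85.9 and 91.6 FPKM in fed mice and 113 and 122 in fasted mice (0.45 ± 0.08). Etfb, a subunit of the flavoprotein that takes up electrons from β-oxidation, held 159, 158 and 171 FPKM in fed mice and 206 and 227 in fasted mice (0.41 ± 0.07).

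Of 65 rows on the amino acid list, 4 were among the 115, with 1 higher (Gpt2) and 1 lower (Haao). Sardh, which breaks down sarcosine, had a difference of 0.04 and Agxt, the alanine-glyoxylate aminotransferase, of −0.08, and both overlapped between groups. Glycolysis was represented by Pgk1 and Pgam1. Pgk1, phosphoglycerate kinase, held 135, 135 and 136 FPKM in fed mice and 158 and 161 in fasted mice (0.23 ± 0.01), a small difference. Pgam1, phosphoglycerate mutase, had a difference of 0.22 ± 0.04. Elovl2, which elongates polyunsaturated fatty acids, was the only gene of the lipid synthesis list (0.20 ± 0.07).

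Of 80 rows for secreted plasma proteins, 8 were among the 115, of which 4 were at least 1.5-fold lower and 0 higher (median −0.54). Of all 115 genes 7.83% were that much lower and 8.70% higher, and of the 12396 expressed rows 9.24% and 9.4%. Besides the 4 described above, Serpina1d, another α1-antitrypsin copy, held 2607, 2718 and 2635 FPKM in fed mice and 2153 and 2095 in fasted mice (−0.32 ± 0.03). Serpinc1, which encodes antithrombin, held 658, 656 and 653 FPKM in fed mice and 540 and 514 in fasted mice (−0.32 ± 0.03). Serpina1b and Itih2 overlapped between the groups, with differences of −0.02 and 0.01. The list thus ran from no visible difference to 2.90-fold lower, and its 3 Serpina1 copies lay at −0.02, −0.32 and −1.54. Among 3 of 23 major urinary protein rows, Mup3 and Mup21 were lower and Mup15, whose name is uncertain, overlapped (−0.06). The 3 of 18 apolipoprotein rows that were kept lay on both sides of 0: Apoc4 at 0.42, Apon at 0.10 and Apom at −0.26.

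Of 86 ribosomal protein rows, 12 were among the 115, and of these 0 passed 1.5-fold. In 10 both fasted mice lay below all fed mice, as in 47 of all 115 genes and 13.1% of the 12396 expressed rows. All 12 differences were below 0 (median −0.20, from −0.50 to −0.08), as were 64 of the 115. Rps21 of the small subunit, with 132, 113 and 98.8 FPKM in fed mice and 77.1 and 83.1 in fasted mice, had the largest (−0.50 ± 0.16), which passed 1.5-fold without WT fed replicate 3 (−0.60). Rplp1 of the large subunit stood at −0.46 ± 0.11. All 12 remained below 0 when the columns were scaled to a common sum or upper quartile or were quantile normalized. The list did not hold Gm9846, which carries a ribosomal protein name in RefSeq (Rps27rt). Its groups overlapped, with a difference of 0.05. Processed copies of ribosomal genes can share their reads, so single values are uncertain.

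The 8 of 86 respiratory chain rows that were kept had a median difference of −0.01, with 0 past 1.5-fold. They ran from Sdhd, a membrane subunit of complex II (0.36 ± 0.11), to Atp5e, a subunit of ATP synthase (−0.27 ± 0.04), and 5 overlapped between groups. Of 185 rows for cytochrome P450 and conjugation enzymes 7 were kept, of which Ephx2 and Fmo1 were higher and 0 were lower by 1.5-fold (median 0.17), with Gstt1 the lowest. Among genes of smaller lists, Slc10a1, the bile acid uptake carrier of hepatocytes, stood at 0.32 ± 0.12. The antioxidant enzymes Gpx1 and Cat (catalase) overlapped between groups, at 0.09 and 0.01, and the ER chaperones Calr and Pdia3 stood at −0.05 and −0.19. The lists of gluconeogenesis, acute phase and growth hormone and IGF genes held 0 of the 115 genes, so these routes were not analysed here.

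Just above the floor of 50 FPKM were Rundc3a and Rps15a, with lowest values of 50.9 and 51.1, and just below were Ndufv1 (49.8), a complex I subunit, and Agmat (49.2). Just inside the ratio of 2 were Crot (1.99) and Mup15 (1.86), and just outside were Acer2 (2.001) and Mup5 (2.005).

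The p21KO mice, which were not used in choosing the genes, give a second pair of fed and fasted groups. The fit of limma over 11010 rows called 4.73% at an adjusted p under 0.05, and 13.3% had an unadjusted p under 0.05. Of the 112 genes of interest that passed the filter, 1 was called and 9 were under an unadjusted 0.05. The share called under each setting rests on this single gene, and nothing is read from it. Acat1, Msi1 and Gm4636 did not pass the filter of 1 FPKM in 2 or more columns.

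The gene called, Etfb, held 0.234 and 0.0759 FPKM in the fed and 233 and 197 in the fasted p21KO mice (log2 difference 7.55, limma adjusted p = 0.0435), whereas all 5 WT mice held between 158 and 227. The call was lost with the replicate number as a block and with any 1 of the 4 p21KO mice left out, each of which gave 0 calls over all rows. The 2 low values are thus far outside every other mouse, and whether they belong to Etfb was not tested. Of the other genes, Hsd17b10 held 67.7 and 63.2 FPKM in fed and 321 and 239 in fasted p21KO mice, a difference of 2.07 ± 0.29 that did not pass adjustment (limma adjusted p = 0.0818). Ephx2 held 271 and 247 FPKM in fed and 563 and 563 in fasted p21KO mice, with a difference of 1.12 ± 0.24 (limma adjusted p = 0.194). Mup21 held 461 and 333 FPKM in fed and 81.6 and 141 in fasted p21KO mice, with a difference of −1.86 ± 0.44 (limma adjusted p = 0.225). The ± values and adjusted p-values of limma draw on the spread of all rows as deposited, many of which hold different genes in different columns. They cannot be compared with the ± values of the WT differences, which rest on the gene's own values alone, in rows kept for their small spread.

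Whether a row carries 1 gene in the p21KO columns can be judged in part from the spread within their groups. With at least 20 FPKM in all 4 columns and a ratio of at most 2 within each p21KO group, limits set after the p21KO values had been seen, 74 of the 115 genes remained. Their differences had the same sign as in WT for 63 of 74 (85.1%), against 56.2% of 9957 expressed rows as deposited. Those rows include many whose columns hold different genes, and the 74 were kept for their small spread in the p21KO columns, so nothing is read from the gap. Pearson's r between the differences in WT and in p21KO was 0.879 and Spearman's rho 0.836 across these 74 genes, which are not independent of each other and share their libraries. Over all 115 the sign was shared by 81 and Pearson's r was 0.268.

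All 5 of the higher genes that remained (Hsd17b10, Fabp2, Ephx2, Hsd17b4 and Fmo1) were also higher in fasted p21KO mice, with a median of 1.12 against 1.03 in WT. All 8 lower genes that remained were also lower (median −0.95 against −0.86). Fabp2 held 67.2 and 44.7 FPKM in fed and 186 and 118 in fasted p21KO mice, and Hsd17b4 held 109 and 113 against 216 and 180. Mup3 held 7070 and 6884 FPKM in fed and 2923 and 4060 in fasted p21KO mice. Ambp held 896 and 821 against 475 and 588, and Haao 176 and 163 against 78.4 and 107. In these 5 rows the fed and fasted p21KO mice did not overlap. In Cpn1 they did, with 115 and 84.4 FPKM in fed and 93.6 and 71.9 in fasted p21KO mice, and in Fmo1 they lay apart by less than 1.5-fold (0.45). The ribosomal genes that remained, 10 of the 12, had a median of −0.13.

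The 6 other genes past 1.5-fold in WT did not meet these limits in the p21KO columns. Crot held 107 and 0.482 FPKM in fed and 168 and 174 in fasted p21KO mice. Gpt2 held 113 and 16.4 against 0.0553 and 268, and Acat1 held 0.750 and 0.723 against 0.675 and 121. Serpina1e held 8416 and 136 against 2592 and 3783, and Trp53inp2 held 0 and 524 against 37.8 and 51.0. Rundc3a is described in the closing observations. A difference between genotypes was not drawn from any of these rows.

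**Figure D4:**
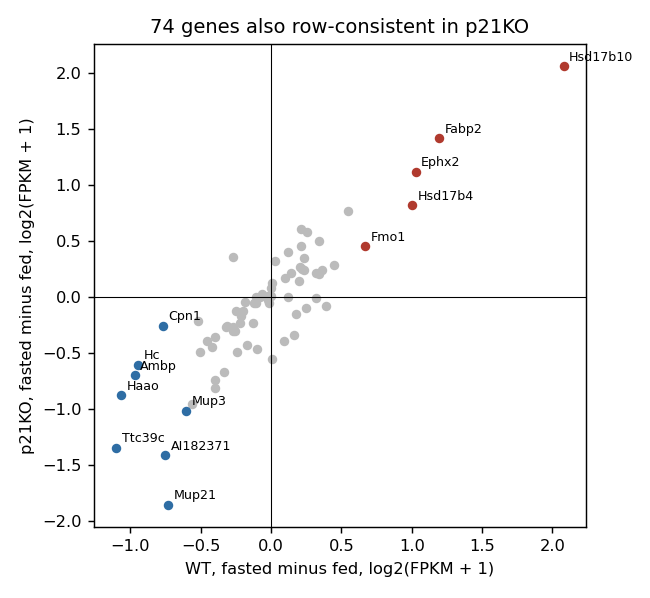
Fasted minus fed difference of mean log2(FPKM + 1) in p21KO mice (vertical axis, 2 fed and 2 fasted) against that in WT mice (horizontal axis, 3 fed and 2 fasted), 1 point per gene for the 74 genes with at least 20 FPKM and a ratio of at most 2 within the p21KO groups. The 5 genes at least 1.5-fold higher in WT (red) lie above 0 on both axes and the 8 lower (blue) lie below 0 on both, and 63 of the 74 share their sign.

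The sorted values of a column need no names, and they did not set fed and fasted WT livers apart. The 100 highest values held 53.1%, 50.4% and 55.8% of the summed FPKM in fed mice and 53.0% and 55.2% in fasted mice. The groups overlapped, with a difference of 1.00 percentage points (exact permutation test, two-sided p = 1). With 3 mice against 2 the smallest p this test can give is 0.2. The value at rank 100 was 502 ± 21.5 FPKM (SD, n = 3) in fed mice and 477 in the mean of the 2 fasted mice, and the exact permutation p was 0.4. At rank 1000 the fed mice held 44.6, 46.8 and 44.0 FPKM and the fasted mice 45.6 and 43.1 (exact permutation p = 0.8). Over both genotypes the share of the 100 highest values differed by −3.01 percentage points (fasted minus fed) (exact permutation within genotype, p = 0.267 over 60 regroupings). This is the mean of the WT and p21KO differences, which had opposite signs. In p21KO mice the share was 55.5% and 61.5% when fed and 50.7% and 52.3% when fasted.

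**Figure D5:**
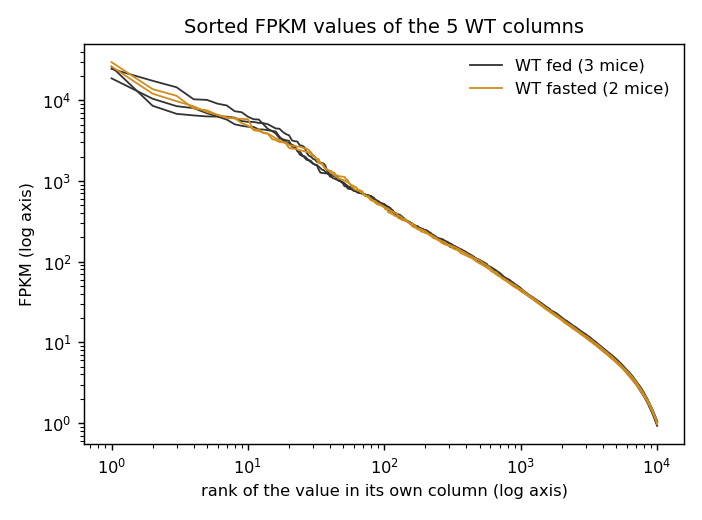
FPKM (vertical axis, log scale) of each WT column sorted from high to low, against the rank of the value in its own column (horizontal axis, log scale), with 1 line for each of the 3 fed (dark) and 2 fasted (orange) mice. The lines run together from rank 100, where fed mice average 502 FPKM and fasted mice 477, and cross above it.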

How the data were processed

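RNA of 9 mouse livers was sequenced as single 50-base reads. The values deposited by the authors are FPKM from Cufflinks after alignment to GRCm38/mm10, with a column for each mouse. Versions differ between sources: Cufflinks was 2.2.1 in the study's methods, with TopHat at 2.0.10, while the submitters' processing notes list Cufflinks 1.3.0 beside 2.2.1, and TopHat2 at 2.0.4. The library kit also differs, SMARTer Ultra Low Input in the methods and stranded TruSeq in the labels. Reads with several matches were kept, which affects gene copies. All 9 columns were matched by name.

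The genes and gene lists were chosen with earlier results of these data known. Genes were named when at least 1.5-fold apart in WT (the 12 largest of each direction), when in a list (at most 4 per list) or when nearest a limit of the rule. Msi1 and other rows whose value in p21KO fasted replicate 2 was not within 2-fold of the WT range were named after their values were seen. So were Slc25a39, Ddt and the plasma proteins Serpina1d, Serpinc1, Serpina1b and Itih2.

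WT differences are descriptions. The p21KO mice were compared with limma 3.58.1 (R 4.3.3) on log2(FPKM + 1), with a variance trend. Benjamini-Hochberg adjustment covered the 11010 rows that reached 1 FPKM in 2 or more columns. The fit was tested on simulated data whose rows matched between columns, so that test cannot show how it handles mismatched rows. Sorted values were compared by exact permutation. P-values of the sorted values measure the spread between these mice. Those of limma also take in the mismatch of rows between columns, since it was fitted on rows as deposited. Alternatives were other floors, ratios, folds, pseudocounts, filters and scalings, a replicate block and each mouse left out. SciPy was 1.17.1 and matplotlib 3.10.9, under Python 3.11.15.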

Additional observations from a re-analysis of the deposited data

Results flagged for a closer look

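In the row named Rundc3a, fasted mice lay above fed mice in WT and below them in p21KO, without overlap between the groups. Its value in p21KO fasted replicate 2 was not within 2-fold of the WT range, and whether the columns hold the same gene there was not tested. It held 59.0, 50.9 and 57.3 FPKM in fed and 85.2 and 97.9 in fasted WT mice, and 42.7 and 33.2 in fed and 8.14 and 6.74 in fasted p21KO mice. The difference in p21KO was −2.20 on the log2 scale, and the difference between the genotypes was not tested. The row next to it, Slc25a39, was higher after fasting in both, by 0.34 in WT and 0.50 in p21KO mice.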

How the results depend on the processing

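The number of genes kept was 115 at 50 FPKM, 304 at 20 FPKM and 54 at 100 FPKM, and 139 to 189 when 1 mouse was left out, being 173 when WT fed replicate 2 and 189 when WT fasted replicate 2 was the one left out. Genes at least 1.5-fold higher fell from 10 to 3 at 100 FPKM and to 5 among the 74 genes also kept in p21KO, a limit added after the data were seen. Lower genes fell from 9 to 3 at a limit of 2-fold and to 5 at 100 FPKM. For the 19 named genes, 184 of 190 alternative differences moved by less than the spread between mice, 6 moved by more and 0 changed sign. Over 10 such settings 15 of the 19 stayed past 1.5-fold, and Fmo1, Mup3, Mup21 and AI182371 did not in at least 1. The 19 were picked for groups that do not overlap, so a mouse left out, another pseudocount or the block could not change a sign.

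In p21KO mice limma called 521 rows. It called 284 with a pseudocount of 0.1, 73 with no filter, 145 with a mean of at least 5 FPKM, 53 after quantile normalization, 334 without the trend and 139 with all 9 mice fitted. The replicate block gave 0 calls (1293 rows at an unadjusted p under 0.05). The calls were 0 to 0 with any 1 of the 4 p21KO mice left out (1278 to 1682 rows unadjusted), so the call of Etfb was lost each time. Deviations of same-numbered mice correlated at 0.009 in p21KO and at 0.047 and 0.114 in WT, over rows as deposited. Many of these rows hold different genes in different columns, so the correlations cannot show whether same-numbered mice belong together. With the block, the WT counts were 10 and 9, but AI182371 (−0.58) dropped out and Rps21 (−0.60) came in.

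The difference in the share of the 100 highest values turned from 1.00 in WT to −3.01 over all 9 mice, where the fall in p21KO was averaged in. The WT difference ran from −0.37 (without WT fed replicate 2) to 2.35 with 1 mouse left out, and was −0.097 without WT fasted replicate 2. Why the share differed between mice was not tested. The reads behind each value are unknown.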
